A study of Mus musculus with 8 samples.

Results

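The gene set described here holds 38 mouse genes of the hypoxia response and of glycolysis: the hypoxia-inducible factor Hif1a and its oxygen sensors, glucose and lactate transporters, glycolytic enzymes, regulators of glycolytic flux, and known targets of hypoxia-inducible factors. The genes were listed by name. For each gene, the probe set with the highest mean over 8 arrays stood for the gene, among probe sets annotated with exactly 1 symbol. On this basis 34 of the 38 were tested, among 18193 genes in all. Of the other 4, Gpi1 and Eno1 had no probe set listed under their symbol alone, Bnip3l was covered by 3 probe sets that each name several genes, and Gapdh had no single-symbol probe set besides 3 of the control probe sets of the array. These 3 Gapdh probe sets lay between 14.08 and 14.23 on the log2 scale on all 8 arrays.

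The data come from T29 cells, an established line from a mouse thymic lymphoma, which the submitters describe as lacking Ikaros. Ikaros, the product of Ikzf1, is a zinc finger transcription factor of lymphocytes. The cells had been transduced either with the retroviral vector MigR1 alone or with MigR1 carrying Ik1ER, an inducible Ikaros, and each line received 100 nM 4-hydroxytamoxifen (4OHT) or ethanol for 24 h. The study asked which genes respond to Ikaros. The 4 groups were thus MigR1 cells in ethanol, MigR1 cells in 4OHT, Ik1ER cells in ethanol and Ik1ER cells in 4OHT, with 2 Affymetrix arrays each. All of them were T29 cells grown in RPMI1640 with serum and sodium pyruvate. The labels name no oxygen level, cell density or day of culture, and they do not say whether a transduced line was a pool or a clone. Nor do they name separate cultures for the 2 arrays of a group, so the p-values rest on a spread between arrays that could be purely technical.

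Hypoxia-inducible factors are made of an oxygen-regulated alpha subunit, such as that encoded by Hif1a, and a constant beta subunit. In oxygen, prolyl hydroxylases of the Egln family modify the alpha subunit, which is then bound by the von Hippel-Lindau protein and degraded. When oxygen falls, the alpha subunit accumulates and the dimer binds a short core sequence near genes of glucose uptake, glycolysis, mitophagy, angiogenesis and pH control. Thymocytes and lymphoma cells use glycolysis also in oxygen, where growth signals and MYC drive many of the same genes. The level of Hif1a mRNA is not a measure of the protein, since the main control is on its stability.

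The labelled cell type was checked first. Of 10 T cell markers 9 were measured. Among them, Cd3d, Thy1 and Rag1 lay between 12.51 and 13.64 on all arrays, whereas Cd2 was dim in MigR1 cells and in Ik1ER cells in ethanol. The mean of the 9 ranged from 10.53 to 10.63 in those 3 groups and from 10.65 to 10.86 in Ik1ER cells in 4OHT. This mean hides opposite shifts. With 4OHT in Ik1ER cells, 3 of the 9 were higher and 4 lower at an adjusted p under 0.05 in limma. By that rule 5.34% of all genes changed in either direction. The group mean went from 9.19 in ethanol to 11.03 in 4OHT for Cd8a, and from 12.96 to 12.26 for Cd3g. Cd4 lay between 6.87 and 7.91 on all arrays. The mean of 4 measured of 5 B cell markers lay between 4.96 and 5.22, that of 5 myeloid markers between 5.22 and 5.57, that of 2 measured of 4 erythroid markers between 4.07 and 4.29, and that of 5 stromal and endothelial markers between 4.66 and 4.82. Among these markers, Cd14 and Lyz2 fell and Itgam and Pecam1 rose with 4OHT in Ik1ER cells, and their part in the results here was not tested. The highest mean of a Bacillus control probe set, which serves as a gauge of background, was 5.27. The replicate 2 arrays of the Ik1ER line differed from the others in their control probe sets. The 3' minus 5' difference of Tfrc was 1.66 and 1.91 on them against 1.15 to 1.39 on the other 6 arrays.

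Promoter sequences were taken from RefSeq (GRCm38.p6) for 34 of the 38 listed genes. These are not the same 34 as those tested: they include Eno1, Gpi1 and Gapdh and do not include Ndrg1, Bhlhe40, Slc2a3 and Bnip3l. The 250 bases before each annotated start were searched on both strands for the hypoxia response core, as ACGTG or GCGTG, and for a core of Ikaros binding, TGGGAA. The hypoxia core was found at 32 of these 34 genes (94.1%), against 53.6% of the 14453 genes named on the array that had a promoter in the table and 41.5% of all 27025 genes there. Of the 31 tested genes with a promoter it was found at 30 (96.8%). The Ikaros core was found at 7 of the 34 (20.6%), against 24.2% of the genes named on the array. These matches describe letters in a window and do not show binding, and neither base composition nor the number of annotated starts was matched between the sets. The 4 promoters printed here belong to genes on which the results turn: Aldoc, which fell with 4OHT in Ik1ER cells, and Adm, Ankrd37 and Slc2a1, which were highest in MigR1 cells in ethanol. Each is written 5′ to 3′ on the strand of its gene and ends at the base before the annotated start. Capitals mark the hypoxia core (CACGT or CACGC where it lies on the other strand) and the Ikaros core. Aldoc lies at chr11:78322823-78323072 on the plus strand, Adm at chr7:110627407-110627656 on the plus strand, Ankrd37 at chr8:45999851-45999950 on the minus strand, and Slc2a1 at chr4:119108495-119108744 on the plus strand.
Aldoc: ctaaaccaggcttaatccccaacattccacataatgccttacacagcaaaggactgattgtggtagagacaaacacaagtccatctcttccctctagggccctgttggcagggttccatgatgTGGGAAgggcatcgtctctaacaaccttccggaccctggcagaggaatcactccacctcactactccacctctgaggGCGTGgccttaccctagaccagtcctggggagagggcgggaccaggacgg
Adm: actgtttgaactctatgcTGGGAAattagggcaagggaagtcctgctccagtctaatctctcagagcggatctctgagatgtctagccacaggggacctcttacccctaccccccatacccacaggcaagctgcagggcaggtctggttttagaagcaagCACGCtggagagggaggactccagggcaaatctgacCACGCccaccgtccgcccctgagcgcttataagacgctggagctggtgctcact
Ankrd37: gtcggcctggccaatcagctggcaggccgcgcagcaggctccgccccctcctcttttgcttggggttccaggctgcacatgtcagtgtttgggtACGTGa
Slc2a1: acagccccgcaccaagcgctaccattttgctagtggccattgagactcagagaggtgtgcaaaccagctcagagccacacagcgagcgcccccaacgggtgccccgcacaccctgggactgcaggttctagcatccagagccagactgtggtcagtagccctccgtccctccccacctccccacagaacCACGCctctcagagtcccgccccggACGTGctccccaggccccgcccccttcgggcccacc
The printed Aldoc window held 1 hypoxia core and 1 Ikaros core, and the Adm window 2 and 1. Aldoc has another annotated start, and the window before it, not printed, also held 1 of each core. The 250 bases searched before Ankrd37 held 4 hypoxia cores, of which the 100 bases printed hold the 1 nearest the start. The Slc2a1 window held 2, and neither the Ankrd37 nor the Slc2a1 window held TGGGAA.

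With 4OHT, 2 of the 34 genes, Ndrg1 and Aldoc, fell in Ik1ER cells and none rose. Ndrg1, a hypoxia-responsive gene linked to differentiation and growth arrest, fell 2.09-fold, and Aldoc, the brain-type aldolase, fell 1.47-fold. Calls were made with limma at an adjusted p under 0.05 over all 18193 genes. By that rule 5.34% of all genes were called in this comparison, 2.8% higher and 2.53% lower. The share of the 34 that was called is therefore close to that of all genes. Without adjustment, 8 of the 34 genes had a p under 0.05, all lower, against 17.8% of all genes in either direction.

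The fall of Ndrg1 was seen on both Ik1ER arrays. Its log2 values were 11.40 and 11.13 in MigR1 cells in ethanol, 11.16 and 11.10 in MigR1 cells in 4OHT, 11.10 and 11.39 in Ik1ER cells in ethanol, and 10.01 and 10.36 in Ik1ER cells in 4OHT. The 2 arrays of Ik1ER cells in 4OHT thus lay below all other 6, which did not separate by group. Ndrg1 fell by 1.06 on the log2 scale in Ik1ER cells (SE 0.15, adjusted p = 0.00682). In MigR1 cells the difference was -0.14 (SE 0.15, adjusted p = 1.00). Compared with MigR1 cells in 4OHT, Ik1ER cells in 4OHT had 0.94 less on the log2 scale (difference -0.94, SE 0.15, adjusted p = 0.0112). Between the lines in ethanol the difference was -0.02.

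The difference between the 4OHT effects of the lines was -0.93 for Ndrg1 (SE 0.21), with an adjusted p of 0.0932, so it did not pass the threshold with the probe set that stands for the gene. Ndrg1 had 5 probe sets, and all of them gave the same picture. In Ik1ER cells they differed between 4OHT and ethanol by -0.97 to -1.19, with adjusted p-values over 45037 probe sets from 0.00190 to 0.0133. In MigR1 cells they differed by -0.16 to 0.01. The difference between the lines was called for 2 of the 5 probe sets (-0.99 with an adjusted p of 0.0339 and -1.13 with an adjusted p of 0.0266). It was also called when the 5 were averaged (adjusted p = 0.0237). The fall in Ik1ER cells was called without any 1 of the 8 arrays, with adjusted p-values up to 0.0459. Without both replicate 2 arrays of the Ik1ER line it was -1.10 (adjusted p = 0.0325). The comparison of the lines in 4OHT was not called without MigR1 4OHT replicate 1 (adjusted p = 0.0817) or MigR1 4OHT replicate 2 (adjusted p = 0.0754).

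**Figure D1:**
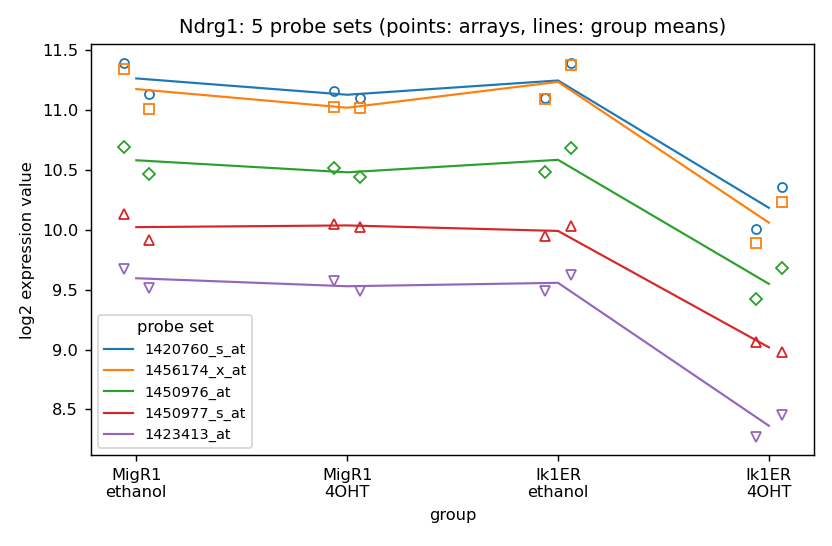
Log2 expression values of the 5 Ndrg1 probe sets (vertical axis) in the 4 groups (horizontal axis), with 1 point per array and lines joining the group means. For every probe set the 2 arrays of Ik1ER cells in 4OHT lie below the other 6.

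Aldoc had log2 values of 7.57 and 7.29 in MigR1 cells in ethanol, 7.40 and 7.30 in MigR1 cells in 4OHT, 7.47 and 7.64 in Ik1ER cells in ethanol, and 7.07 and 6.93 in Ik1ER cells in 4OHT. The last group lay below all other arrays. Aldoc fell by 0.56 on the log2 scale in Ik1ER cells (SE 0.11, adjusted p = 0.0290), against -0.08 in the vector line. The 4OHT effects of the lines differed by -0.48 (SE 0.16, adjusted p = 0.277). The call was less stable than that of Ndrg1. It remained without either MigR1 ethanol array and was lost without any 1 of the other 6 arrays, with adjusted p-values up to 0.164. Without both replicate 2 arrays of the Ik1ER line, Aldoc differed by -0.41 (adjusted p = 0.285). The other Aldoc probe set had a mean of 3.30, near the median of the Bacillus controls of 3.33, and differed by -0.02.

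No regulatory step of glycolysis was called in Ik1ER cells, and those with the larger differences had differences of the same sign in MigR1 cells. Pdk1, a pyruvate dehydrogenase kinase, had 10.77 and 11.14 in ethanol and 10.35 and 10.66 in 4OHT (difference -0.45, SE 0.14, adjusted p = 0.133). In MigR1 cells its values were 10.78 and 10.69 in ethanol and 10.56 and 10.61 in 4OHT, a difference of -0.15. In both lines the 4OHT arrays were thus below the ethanol arrays of that line. Hk2, the inducible hexokinase, read 9.02 and 9.23 in ethanol and 8.54 and 8.80 in 4OHT in Ik1ER cells (difference -0.45, SE 0.16, adjusted p = 0.181), and differed by -0.36 in MigR1 cells. Pfkfb3, which makes the activator of phosphofructokinase, read 8.30 and 8.56 against 7.88 and 8.13 (difference -0.42, SE 0.18, adjusted p = 0.263), and differed by -0.45 in MigR1 cells. Of the other regulatory steps, Pfkfb4 differed by 0.03 and Pfkp by 0.14 in Ik1ER cells, against -0.05 and -0.16 in MigR1 cells. Egln1, the main oxygen-sensing hydroxylase, differed by -0.30 (SE 0.12, adjusted p = 0.212) in Ik1ER cells and by -0.22 in MigR1 cells.

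**Figure D2:**
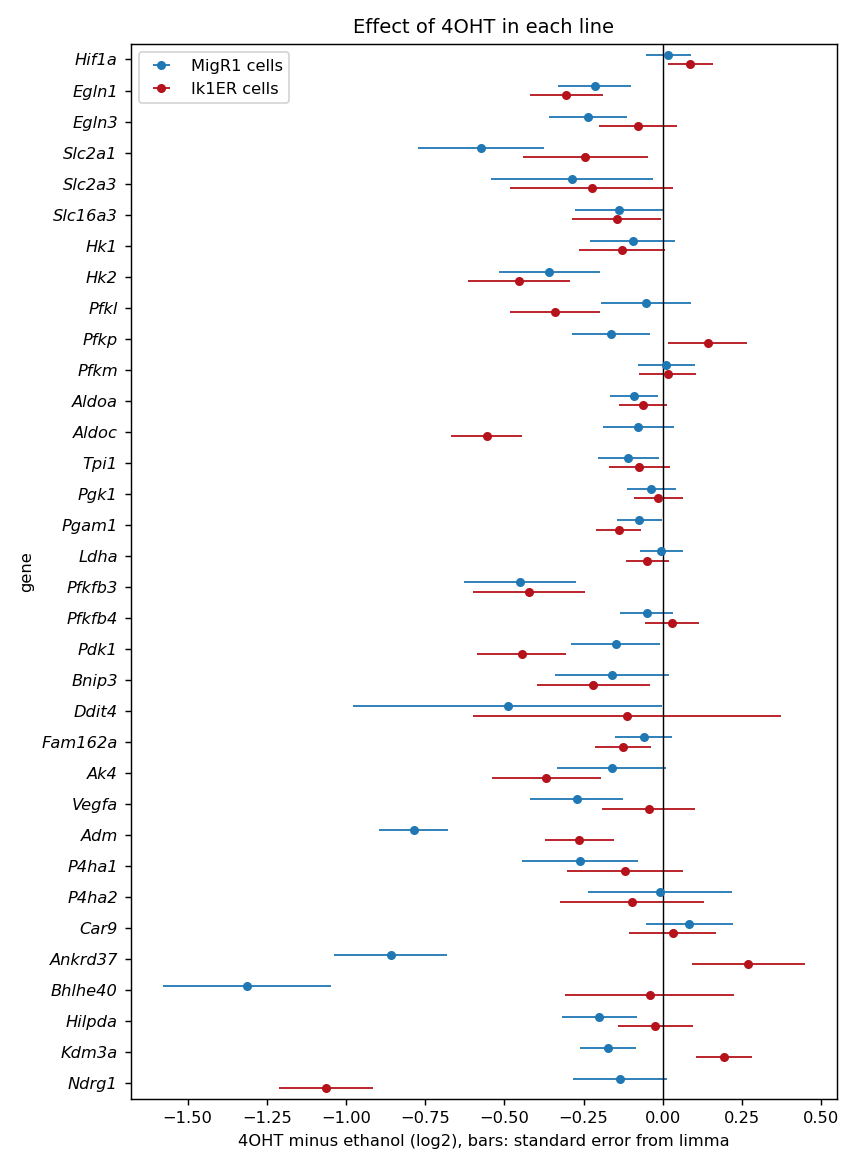
Difference between 4OHT and ethanol on the log2 scale (horizontal axis, points with standard errors from limma) for the 34 genes (vertical axis), in MigR1 cells and in Ik1ER cells. Ndrg1 and Aldoc are the 2 genes called in Ik1ER cells, while Bhlhe40, Ankrd37 and Adm have the lowest values in MigR1 cells, where no gene was called.

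Over the whole set, 27 of the 34 genes had a difference below 0 in Ik1ER cells, with a median of -0.12, against 51.2% of all genes and a median of 0.00. Without Ik1ER ethanol replicate 2 the count was 19 and the median -0.01, and without Ik1ER 4OHT replicate 1 it was 21 with a median of -0.04. Without either of the other 2 Ik1ER arrays the count stayed at 27 and the median was -0.20. Both 4OHT arrays lay below both ethanol arrays for 10 of the 34 genes (29.4%), against 21.7% of all genes, and above them for 3, against 21%. Among these 3, Kdm3a, a histone demethylase induced by hypoxia, read 10.35 and 10.46 in ethanol and 10.60 and 10.59 in 4OHT (difference 0.19, adjusted p = 0.305). The other 2 were Hif1a and Pfkp.

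In MigR1 cells, which carry no Ik1ER, 4OHT gave no call for any of the 34 genes, nor for any gene on the array (0% of all genes). Adjusted p-values were 1.00 for every gene. At an unadjusted p under 0.05 there were 5 of the 34, all lower, against 2.12% of all genes in either direction. The sizes of the differences in this set were nevertheless at the edge of the array. Bhlhe40, Ankrd37, Adm and Slc2a1 had ranks 1, 2, 3 and 4 from the lowest difference among the 18193 genes, and Ddit4 and Pfkfb3 had ranks 6 and 7. The set was chosen with earlier results of these data known, and the genes of largest difference were picked after their values were seen. Such ranks, and the shares of the set beside all genes, therefore describe these data and are not a test. Bhlhe40 encodes a repressor of the circadian and hypoxia pathways, Ankrd37 an ankyrin repeat protein, Adm the vasodilator peptide adrenomedullin, Slc2a1 the basal glucose transporter GLUT1, and Ddit4 an inhibitor of mTORC1.

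Bhlhe40 had log2 values of 8.34 and 7.66 in MigR1 cells in ethanol and 6.57 and 6.81 in MigR1 cells in 4OHT, whereas Ik1ER cells had 6.77 and 7.39 in ethanol and 6.85 and 7.23 in 4OHT. The MigR1 ethanol arrays were the highest of the 8. Ik1ER cells in ethanol overlapped with both groups in 4OHT. Both arrays of MigR1 cells in 4OHT lay below both of Ik1ER cells in 4OHT. The difference with 4OHT was -1.31 in MigR1 cells (SE 0.27, unadjusted p = 0.00120) and -0.04 in Ik1ER cells. Ankrd37 read 9.37 and 8.87, then 8.30 and 8.22 in MigR1 cells, and 8.14 and 8.52, then 8.50 and 8.69 in Ik1ER cells, each time ethanol first. Its difference was -0.86 in MigR1 cells (SE 0.18, unadjusted p = 0.00136) and 0.27 in Ik1ER cells. Here too the MigR1 ethanol arrays were above all others.

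Adm had values of 6.41 and 6.07 in MigR1 cells in ethanol and 5.44 and 5.46 in 4OHT, against 5.59 and 5.63 in Ik1ER cells in ethanol and 5.32 and 5.37 in 4OHT. The 6 arrays outside MigR1 cells in ethanol lay between 5.32 and 5.63, close to the 5.27 of the highest Bacillus control. The difference was -0.79 in MigR1 cells (SE 0.11, unadjusted p = 9.13e-05) and -0.26 in Ik1ER cells. The second Adm probe set had a lower mean (4.93 against 5.66) and a wider range. Its values were 6.12 and 5.78 in MigR1 cells in ethanol, 4.48 and 4.54 in MigR1 cells in 4OHT, 4.91 and 4.78 in Ik1ER cells in ethanol, and 4.36 and 4.50 in Ik1ER cells in 4OHT. When probe sets ending in _x_at, which can cross-hybridise, were passed over wherever possible, this probe set stood for Adm. Adm was then the 1 gene called in MigR1 cells (difference -1.44, adjusted p = 0.0379). On the 6 arrays outside MigR1 cells in ethanol this probe set lay below the 5.27 of the highest Bacillus control, so the size of that difference rests on values at background.

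Slc2a1 had 10.28 and 9.83 in MigR1 cells in ethanol, 9.61 and 9.35 in MigR1 cells in 4OHT, 9.23 and 9.73 in Ik1ER cells in ethanol, and 9.15 and 9.32 in Ik1ER cells in 4OHT. Its 3 probe sets differed by -0.46 to -0.57 in MigR1 cells. Slc2a3, the high-affinity transporter GLUT3, read 10.10 and 9.32 against 9.65 and 9.19 there, so its arrays overlapped (difference -0.29). Slc16a3, the lactate exporter MCT4, was near background, between 5.02 and 5.70 on the 8 arrays. All 3 transporters had differences below 0 in both lines and none was called. Pfkfb3 read 9.02 and 8.56 in ethanol and 8.48 and 8.19 in 4OHT in MigR1 cells (difference -0.45, unadjusted p = 0.0343), about the size it had in Ik1ER cells.

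**Figure D3:**
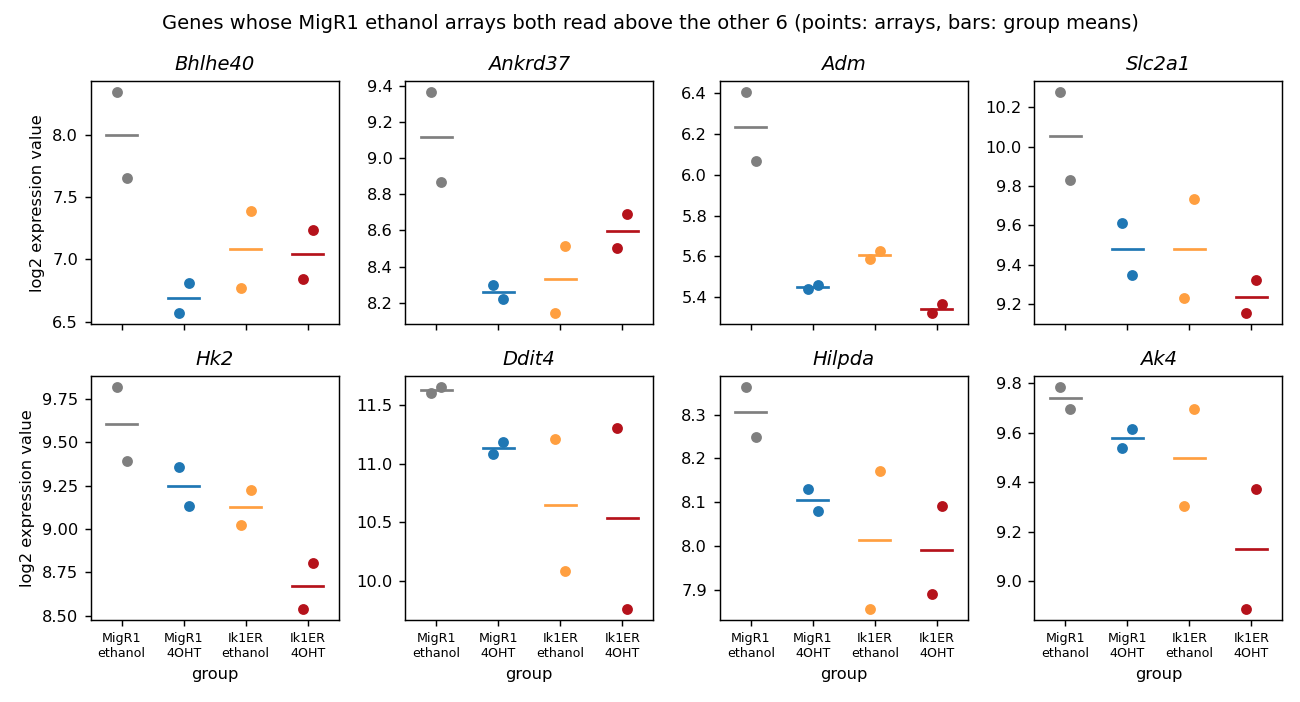
Log2 expression values (vertical axis, a separate scale per gene) of 8 genes in the 4 groups (horizontal axis), with 1 point per array and a bar at each group mean. In all 8 panels both MigR1 ethanol arrays lie above the other 6, by less than 0.01 for Ak4.

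Both MigR1 ethanol arrays lay above all other 6 arrays for 8 of the 34 genes, against 2.7% of all genes. The 8 were Bhlhe40, Ankrd37, Adm, Slc2a1, Hk2, Ddit4, the lipid droplet protein gene Hilpda and the adenylate kinase gene Ak4. Ak4 had 5 probe sets, and with these averaged it differed by -0.03 with 4OHT in MigR1 cells, against -0.16 for the probe set used. Across the set, 31 of the 34 genes had a difference below 0 between 4OHT and ethanol in MigR1 cells, with a median of -0.16, against 46.4% of all genes. Both 4OHT arrays were below both ethanol arrays for 19 genes (55.9%), against 13.2% of all genes, and above them for 0, against 16.5%. Within MigR1 cells in ethanol, replicate 1 read higher than replicate 2 for 31 of the 34 genes, by a median of 0.20, against 56.1% of all genes and a median of 0.02. Without that array 24 genes remained below 0, with a median of -0.05, and Bhlhe40, Ankrd37, Adm and Slc2a1 differed by -0.97, -0.61, -0.62 and -0.35. Without MigR1 ethanol replicate 2 the count was 33 and the median -0.26.

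The 34 genes also moved together between replicates of the Ik1ER line, in which replicate 2 read higher than replicate 1 for all but 2 genes in ethanol and for all but 7 in 4OHT. The median difference, replicate 1 minus replicate 2, was -0.17 in ethanol and -0.18 in 4OHT, whereas the medians over all genes were 0.00 and 0.02. The mean over the 34 genes was highest on MigR1 ethanol replicate 1 (9.91) and lowest on Ik1ER 4OHT replicate 1 (9.40), and the other 6 arrays lay between 9.52 and 9.70. On this mean the 2 treatments did not overlap within either line. The values were 9.91 and 9.66 in ethanol against 9.59 and 9.52 in 4OHT in MigR1 cells. In Ik1ER cells they were 9.54 and 9.70 against 9.40 and 9.53. The gap there, between 9.54 and 9.53, was far smaller than the difference between replicates of that line.

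**Figure D4:**
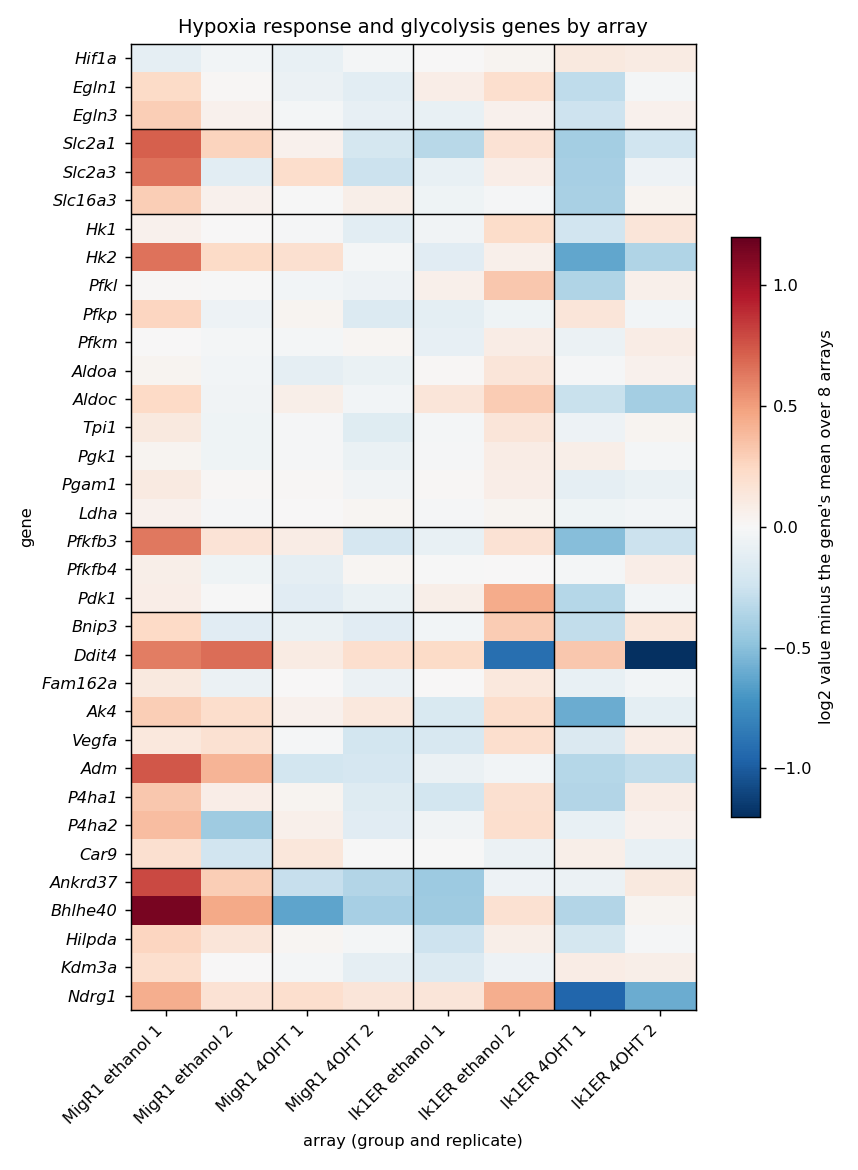
Heat map of the 34 genes (rows, grouped by role) on the 8 arrays (columns, grouped by line and treatment), coloured by the log2 value minus the gene's mean over the arrays. MigR1 ethanol replicate 1 is high for most genes, Ndrg1 is low on both arrays of Ik1ER cells in 4OHT, and Ddit4 is low on both replicate 2 arrays of the Ik1ER line.

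Without inducer, no gene of the set was called between Ik1ER and MigR1 cells, and no gene on the array was (0% of all genes). The smallest adjusted p among the 34 was 0.830, for Adm. At an unadjusted p under 0.05 there were 7 of the 34, all lower in Ik1ER cells, against 5.32% of all genes in either direction. These were Bhlhe40 (-0.92), Ankrd37 (-0.79), Adm (-0.63), Slc2a1 (-0.57), Hk2 (-0.48), Hilpda (-0.29) and Kdm3a (-0.22). This comparison shares the MigR1 ethanol arrays with the effect of 4OHT in MigR1 cells, so the values are not independent of those above. Both Ik1ER arrays lay below both MigR1 arrays for 10 genes, against 16.8% of all genes, and above them for 2, Hif1a and Pfkl, against 20.7%. Of the 34 genes, 21 had a difference below 0, with a median of -0.02. That count was 15 without MigR1 ethanol replicate 1 and 28 without MigR1 ethanol replicate 2.

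Ddit4 had the lowest difference of all 18193 genes in ethanol, -0.98, but its arrays disagreed. Its values were 11.60 and 11.65 in MigR1 cells in ethanol, 11.08 and 11.19 in MigR1 cells in 4OHT, 11.21 and 10.08 in Ik1ER cells in ethanol, and 11.31 and 9.76 in Ik1ER cells in 4OHT. Both low values came from the replicate 2 arrays of the Ik1ER line, which also differed in their control probe sets. The standard error was 0.49 and the unadjusted p 0.0797. Without both of these arrays the difference in ethanol was -0.41.

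In 4OHT, Ndrg1 was the 1 gene of the set called between the lines, lower in Ik1ER cells. Of all genes 5.08% were called in this comparison, 2.91% higher and 2.17% lower. Hk2 read 8.54 and 8.80 in Ik1ER cells against 9.36 and 9.13 in MigR1 cells (difference -0.57, SE 0.16, adjusted p = 0.0963). Aldoc differed by -0.35 (adjusted p = 0.142) and Ak4 by -0.45 (adjusted p = 0.223). Without both replicate 2 arrays of the Ik1ER line, which left 1 array in each Ik1ER group, Ak4 differed by -0.69. Ak4 had 5 probe sets, and with these averaged over all 8 arrays it differed by -0.29. Both Ik1ER arrays lay below both MigR1 arrays for 9 genes, against 22.6% of all genes, and above them for 5, against 22.2%. Both arrays of Ik1ER cells in 4OHT were below all other 6 for 7 genes, against 11.1% of all genes: Ndrg1, Aldoc, Hk2, Pfkfb3, Adm, Pgam1 and Ldha. For Adm this did not hold on its other probe set.

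Hk2 and Adm were the genes of the set whose arrays lay lower without overlap in each of the 4 comparisons of 2 groups, against 0.368% of all genes. Neither was called. For Adm this held only on the probe set that stood for the gene, where the lines differed by -0.11 in 4OHT (adjusted p = 0.684 in limma), close to background. On its other probe set the arrays of the lines overlapped in 4OHT. These comparisons share arrays, so the 4 are not independent. The Hk2 values were 9.82 and 9.39 in MigR1 cells in ethanol, 9.36 and 9.13 in MigR1 cells in 4OHT, 9.02 and 9.23 in Ik1ER cells in ethanol, and 8.54 and 8.80 in Ik1ER cells in 4OHT. The order of the group means was thus 9.60 ± 0.30, 9.25 ± 0.16, 9.13 ± 0.14 and 8.67 ± 0.18 (SD, n = 2 each). The arrays of the 2 groups in the middle overlapped.

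The difference between the 4OHT effects of the lines was not called for any of the 34 genes, against 1.26% of all genes. At an unadjusted p under 0.05 there were 6 of them, against 11.2% of all genes. Ndrg1 and Aldoc had the more negative effect in Ik1ER cells. Bhlhe40 (1.27, adjusted p = 0.207), Ankrd37 (1.13, adjusted p = 0.0902), Adm (0.52, adjusted p = 0.197) and Kdm3a (0.37, adjusted p = 0.288) had the more negative effect in MigR1 cells. For Ankrd37 the adjusted p was 0.0482 with the trend and robust settings of limma. For Adm it was 0.0328 with the other probe set (difference 1.03), whose values outside MigR1 cells in ethanol were all at background. Both of these differences draw on the MigR1 ethanol arrays described above.

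Neither the transcription factor nor its sensors were called in any comparison. Hif1a lay between 11.33 and 11.56 on the 8 arrays, and its difference with 4OHT was 0.09 in Ik1ER cells (SE 0.07, adjusted p = 0.611) and 0.02 in MigR1 cells. Both arrays of Ik1ER cells in 4OHT were nevertheless above all other 6, as they were for 12.6% of all genes. Egln1 lay between 9.98 and 10.52 and Egln3, a hydroxylase that is itself induced by hypoxia, between 10.86 and 11.40, a wider range than that of Hif1a. For Egln1 both 4OHT arrays were below both ethanol arrays in each line, and for Egln3 this held in MigR1 cells (difference -0.24).

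The enzymes of the pathway differed in how far their values ranged. Of the 11 tested, 6 had the narrowest ranges. Ldha, lactate dehydrogenase A, ranged over 0.10 on the log2 scale across all 8 arrays, Pgk1, phosphoglycerate kinase, over 0.17, Pfkm, the muscle phosphofructokinase, over 0.19, and Pgam1, phosphoglycerate mutase, over 0.21. Aldoa, the main aldolase, ranged over 0.25 and Tpi1, triosephosphate isomerase, over 0.28. Ldha (13.57 on average), Pgk1 (13.70), Tpi1 (13.13) and Aldoa (12.79) lay at the bright end of the scale, where array signals can be compressed, so a narrow range there does not show a constant level. The other 5 ranged from 0.42 for Pfkp and 0.45 for Hk1 to 0.69 for Pfkl, 0.71 for Aldoc and 1.28 for Hk2. Hk1, the constitutive hexokinase, differed by -0.13 with 4OHT in Ik1ER cells and by -0.10 in MigR1 cells. The phosphofructokinase subunits differed by -0.34 (Pfkl), 0.14 (Pfkp) and 0.02 (Pfkm) in Ik1ER cells, none of them called. Of the 11 enzymes tested, 1 was called with 4OHT in Ik1ER cells, Aldoc (9.09%, against 5.34% of all genes).

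Targets in mitophagy, secretion and matrix gave no call. Bnip3, a mitophagy receptor, differed by -0.22 in Ik1ER cells and by -0.16 in MigR1 cells, and Fam162a, a mitochondrial hypoxia target, by -0.13 and -0.06. Vegfa, the angiogenic growth factor, had 8.22 and 8.27 in MigR1 cells in ethanol and 8.07 and 7.87 in 4OHT (difference -0.27, unadjusted p = 0.0997), and differed by -0.05 in Ik1ER cells. P4ha1, a collagen prolyl hydroxylase, differed by -0.26 in MigR1 cells and -0.12 in Ik1ER cells. P4ha2, its relative, and Car9, the carbonic anhydrase that is a classic marker of hypoxia, had means of 5.21 and 5.01, below the highest Bacillus control, so they were near background. Pfkfb4, a second enzyme of the Pfkfb family, lay between 6.74 and 6.93 on all arrays.

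Other genes of the same pathways were taken from lists of regulators, further targets and neighbouring metabolism. None of 14 measured regulators of the hypoxia pathway (of 17 listed) was called in any of the 5 comparisons. The largest difference among them was that of Epas1, the HIF-2 alpha subunit, which read 7.20 on average in ethanol and 6.42 in 4OHT in Ik1ER cells (difference -0.78, SE 0.19, adjusted p = 0.0541). Of 28 measured further targets (of 32 listed), 2 rose and 2 fell in Ik1ER cells with 4OHT, so that 4 of 28 were called (14.3%), against 5.34% of all genes. Rora, a nuclear receptor, rose by 0.89 (adjusted p = 0.0208) and Ccng2, an atypical cyclin, by 0.66 (adjusted p = 0.0191). Sap30, a corepressor subunit, fell by 0.42 (adjusted p = 0.0295) and Rragd, a GTPase of amino acid sensing, fell by 0.40 (adjusted p = 0.0335). The median over the 28 was -0.05.

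Of 19 measured further glycolysis genes (of 23 listed), 1 was called with 4OHT in Ik1ER cells (5.26%, against 5.34% of all genes). It was Bpgm, which makes 2,3-bisphosphoglycerate and rose by 0.59 (SE 0.09, adjusted p = 0.00964). Of 25 measured genes of pyruvate and citric acid cycle metabolism (of 29 listed), 1 was called there (4%). It was Fh1, fumarate hydratase, which fell by 0.41 (adjusted p = 0.0330). Of 8 measured pentose phosphate genes (of 9 listed), 1 was called there (12.5%), Tktl1, a transketolase-like gene. Tktl1 read 6.10 on average in ethanol and 8.10 in 4OHT in Ik1ER cells (difference 1.99, SE 0.18, adjusted p = 0.00108), against 6.39 and 6.32 in MigR1 cells. The medians of these 3 lists in Ik1ER cells were 0.04, -0.01 and 0.00. None of the genes in these lists was called in MigR1 cells.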

How the data were processed

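Per the labels' protocols, biotin-labelled targets made from total RNA of 8 samples were read on Affymetrix arrays. The deposited values are on the log2 scale and were made by the authors by RMA, as the submitters' processing notes state. The sources used here do not give its version. By its design RMA gives arrays the same distribution, which hides any global change in RNA content, and it compresses dim values. No filter on low values was applied. Of 45101 probe sets, 64 are controls, 34945 have 1 symbol in the platform annotation, 932 have several and 9160 have none listed. The probe set of highest mean among those with 1 symbol stood for its gene, which gave 18193 genes, of which 18032 matched RefSeq by gene identifier with 0 changed symbols.

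The 4 groups were fitted together in limma 3.58.1 (lmFit and eBayes, R 4.3.3, 4 residual degrees of freedom), with Benjamini-Hochberg adjustment over all genes within each of 5 comparisons and a threshold of 0.05. A ± gives the SD over 2 arrays, and SE is limma's standard error of a difference. Precision is limited by the number of arrays. The 38 genes, the pathway lists and the tests were chosen with earlier results of these data known. The text gives array by array the genes called in any comparison, and by group the regulatory steps and the genes of smallest p in Ik1ER cells. The genes of largest difference in MigR1 cells, Kdm3a, Ddit4 and Epas1 were chosen after their values were seen. From each pathway list the called genes are named, at most 4 a list. Motifs were counted in bases before RefSeq starts. Alternatives were a replicate block, a filter on dim genes, trend and robust eBayes, repeated quantile normalization, median centring, other choices of probe set, a fold threshold, arrays left out, only the arrays compared, and, added after seeing the data, control probe sets included.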

Additional observations from a re-analysis of the deposited data

Results flagged for a closer look

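Tktl1, a transketolase-like gene of the pentose phosphate list, drew attention because the effect of 4OHT differed between the lines by a test of the difference itself. It read 2.06 higher on the log2 scale in Ik1ER cells than in MigR1 cells as a difference of 4OHT effects (2.06, SE 0.26, adjusted p = 0.0113 by limma over all genes). Both 4OHT arrays were above both ethanol arrays in Ik1ER cells, and the arrays of MigR1 cells overlapped. No gene of the hypoxia and glycolysis set was called in that test. The groups of 2 arrays were too small for a test of single outlying arrays.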

How the results depend on the processing

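Group sizes of 2 arrays and a spread pooled over the groups limit every count given here. In Ik1ER cells, 2 genes of the set were called for 4OHT, and 1 (Ndrg1) with each gene's probe sets averaged, with every probe set on its own, with a minimum absolute log2 difference of 1, without both second Ik1ER arrays and with only the arrays compared. All genes called there numbered 971, against 156 with the fold threshold, 389 without both second Ik1ER arrays and 399 with only the arrays compared. In MigR1 cells, 0 genes were called, and 1, Adm, with _x_at probe sets passed over where a gene had another. For the difference between the lines, 0 of the set were called, and 1 each with trend and robust eBayes (Ankrd37), with the mean over probe sets (Ndrg1) and with the _x_at rule (Adm). All genes called there numbered 230, against 444 with trend and robust eBayes, 109 with the fold threshold and 90 without both second Ik1ER arrays. Between the lines in ethanol, 0 genes were called, and 1 with the mean over probe sets. Between the lines in 4OHT, 1 of the set was called, 0 with the fold threshold and 2 without both second Ik1ER arrays, and 925 of all genes, against 140, 592 and, with only the arrays compared, 416. Leaving out each array in turn gave 1 to 2 genes of the set and 441 to 832 of all genes in Ik1ER cells, 52 to 273 of all genes for the difference between the lines, and 0 to 1 of the set and 237 to 805 of all genes between the lines in 4OHT. The cause of these changes was not tested. The fit with only the arrays compared could not be run for the difference between the lines, which needs all 4 groups. Replicate numbers are shared between groups in the labels, but no label ties them to a day or culture. Replicate differences correlated at 0.27 within the MigR1 line, at 0.45 within the Ik1ER line and at -0.07 to 0.10 between lines. With the replicate number as a block, 2, 0, 0, 0 and 1 genes of the set were called in the 5 comparisons, as without it, and 1160 of all genes in Ik1ER cells, 341 for the difference between the lines and 1073 between the lines in 4OHT. Ndrg1 and Aldoc kept their direction under every alternative in the comparisons where they were called. In others they did not always. Aldoc differed by -0.08 in MigR1 cells and by 0.02 with the mean over probe sets. Between the lines in ethanol, Ndrg1 differed by -0.02, and by 0.03 with median centring. The direction of called genes outside the set was not followed.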
